A study of Mus musculus with 8 samples.

Results

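The genes described here are 8 genes of mature neutrophils, namely the alarmins S100a8 and S100a9, the surface receptors Csf3r, Cxcr2 and Trem1, the surface proteins Ly6g and Mmp25, and the secreted protein Retnlg. They were chosen by name, through the Ensembl identifiers of their symbols in GENCODE M21, and they are 8 of the 51826 genes counted. All 8 were among the 16484 genes that remained for testing after genes with low counts were removed. RNA sequencing was done on total splenocytes, meaning all white cells of the spleen after lysis of red blood cells, from 8 female Balb/c mice without pristane. The tRA group of 4 mice received all-trans-retinoic acid, an active metabolite of vitamin A, by mouth each day at 1 mg/kg body weight, dissolved in canola oil. The vehicle group of 4 mice received canola oil alone, and the spleens of both groups were taken at 3 months of age. The sample labels give the tRA dose for all 8 mice, and the groups used here follow the sample titles and the study's methods.

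Neutrophils develop in the bone marrow, and to a smaller extent in the spleen, through stages at which different sets of genes are switched on. Proteins of the primary granules are made first, those of the secondary granules later, and receptors for cytokines and chemokines such as Cxcr2 are highest in the mature cell. S100a8 and S100a9 form calprotectin, a calcium-binding complex that fills the neutrophil cytosol and acts as an alarm signal once it leaves the cell.

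Counts on genes totaled from 30919272 to 37539631 per mouse with vehicle and from 31810417 to 35165876 with tRA. Levels are given in CPM, the reads of a gene as a share of its library, scaled between libraries by the TMM method, and errors are SDs over the 4 mice of a group. A positive log2 fold change means a higher level with tRA. Fold changes come from edgeR's quasi-likelihood test, and the false discovery rate (FDR) is adjusted over all genes tested by the Benjamini-Hochberg method. The fewest counts behind a single value were 90, for Ly6g in tRA replicate 2, where counting error alone is 10.5%. For each member, the SD between mice was larger than its counting error in both groups. Levels can be compared between genes only per length, and on the scale of CPM per kb of exon, averaged over all 8 mice, the order was S100a9 (452), S100a8 (125), Csf3r (71.9), Retnlg (20.6), Cxcr2 (11.3), Trem1 (6.29), Ly6g (5.69) and Mmp25 (1.10 with vehicle and 1.41 with tRA). Most neighbours in this order kept their places in all 8 mice. Retnlg was above Cxcr2 in 7 of 8 mice, and Trem1 was above Ly6g in 4 of 8, so that the last pair did not differ in level beyond the spread between mice. On the same scale the mean of Ly6g was above that of Trem1 with vehicle (7.18 against 6.46) and below it with tRA (4.19 against 6.11).

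Between tRA and vehicle, 0 of the 8 members had an FDR under 0.1 in edgeR, and the same held for 0% of all genes tested, the lowest FDR being 0.135. At an unadjusted p under 0.05, 3 members were lower with tRA (S100a8, S100a9 and Ly6g), against 3.55% of all genes tested. At the same p, 0 members were higher, against 2.94% of all genes. The 1070 genes behind these shares became 2105 without tRA replicate 1 and 657 without tRA replicate 4. S100a9 is 1 of the genes that the study selected for display on these same mice, so that its difference is not independent evidence. Without vehicle replicate 2, the number of members at this p was 5, against 6.78% of all genes, since Csf3r and Cxcr2 joined on the higher side. DESeq2 placed 0 members at an FDR under 0.1, against 0.339% of the genes for which it gave an adjusted p, and 4 at an unadjusted p under 0.05, against 7% of all genes with a p, with Cxcr2 as the fourth. For 0 members did the 4 tRA mice all lie below or all lie above the 4 vehicle mice, which was the case for 1.63% and 1.91% of all genes tested. The log2 fold change was negative for 5 members and positive for 3, with a median of -0.25 against 0.0014 over all genes tested. This median rested on single mice, being -0.0062 without tRA replicate 3 (-0.0048 over all genes), -0.13 without vehicle replicate 2 and -0.45 without tRA replicate 1. Total splenocytes were measured, in which fewer neutrophils and less RNA per neutrophil cannot be told apart.

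**Figure D1:**
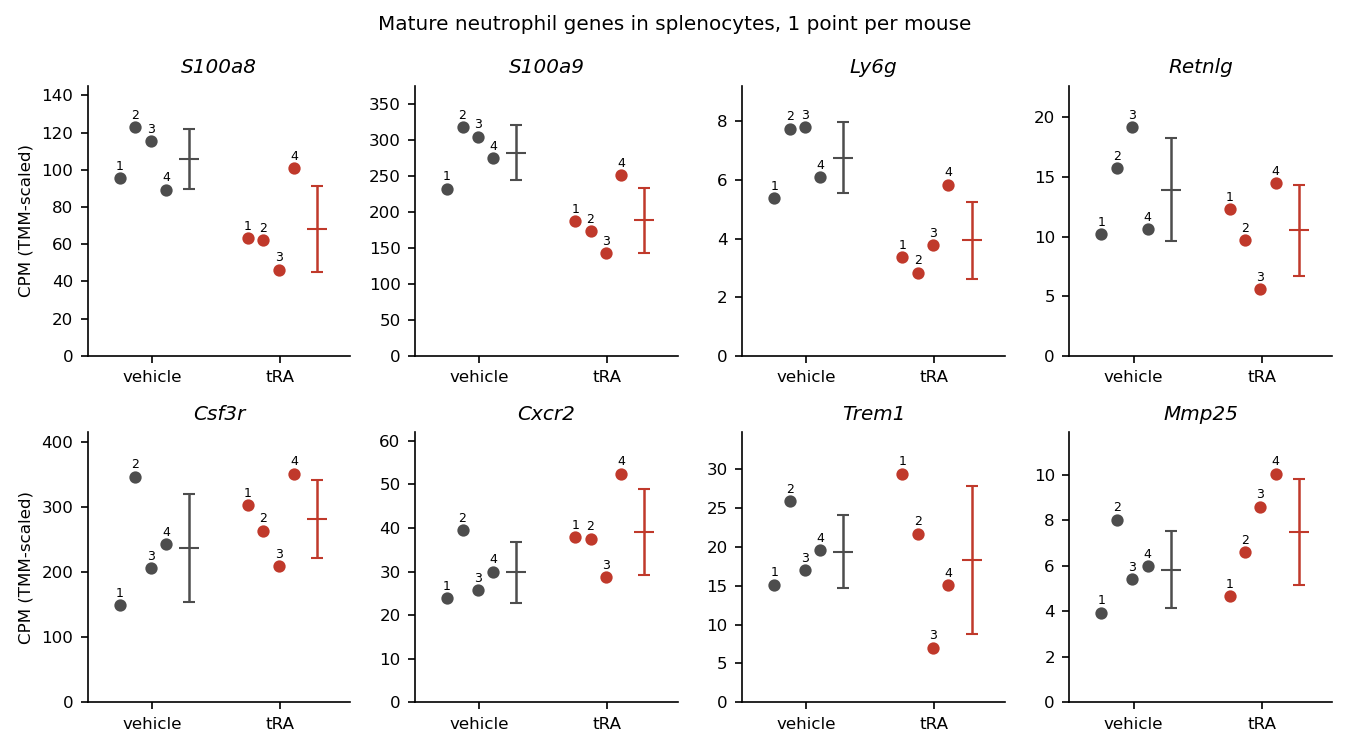
Level of each of the 8 genes in CPM, scaled by TMM, in 4 vehicle mice (gray) and 4 tRA mice (red). Points are mice with their replicate number, and the bar beside them is the mean ± SD. S100a8, S100a9 and Ly6g have 3 of 4 tRA points below every vehicle point, with tRA replicate 4 among the vehicle values, whereas Csf3r, Cxcr2 and Mmp25 have the higher mean with tRA.

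S100a8 (ENSMUSG00000056054) lies on chromosome 3 from 90668978 to 90670035 of GRCm38. Its level was 95.5, 123, 115 and 89.3 CPM in vehicle replicates 1 to 4 and 63.2, 62.1, 46.3 and 101 CPM in tRA replicates 1 to 4. The first 3 tRA mice were below all vehicle mice, and the fourth was within the vehicle range, so the groups overlapped. The mean was 106 ± 15.9 CPM with vehicle and 68.1 ± 23.2 with tRA (SD, n = 4). The log2 fold change was -0.63 (standard error 0.202), with an FDR of 0.757 by edgeR and 0.229 by DESeq2.

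S100a9 (ENSMUSG00000056071) stands 22596 bases away from S100a8 on the same chromosome, from 90692632 to 90695721, and is read from the opposite strand. It measured 233, 318, 305 and 275 CPM in the vehicle mice and 188, 174, 143 and 251 CPM in the tRA mice. As with its partner, tRA replicate 3 was the lowest of all mice and tRA replicate 4 alone reached the vehicle range. The mean went from 283 ± 37.9 CPM with vehicle to 189 ± 45.6 with tRA (SD, n = 4), a log2 fold change of -0.58 (standard error 0.157). Its FDR was 0.757 by edgeR and 0.105 by DESeq2, the closest of the members to the threshold.

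Both subunits had nearly the same pattern over the 8 mice. The ratio of S100a9 to S100a8 counts was 2.44, 2.59, 2.65 and 3.08 in the vehicle mice and 2.97, 2.80, 3.08 and 2.49 in the tRA mice, with full overlap between the groups. On the log2 scale it averaged 1.42 ± 0.143 with vehicle and 1.498 ± 0.135 with tRA, a difference of 0.077 (exact permutation test, two-sided, p = 0.429, adjusted p = 0.429 over 3 ratios). Likeness between genes was measured as the root mean square distance between log2 CPM values, standardized over the 8 mice, among genes with a mean of at least 1 CPM. By this measure S100a8 and S100a9 were each other's nearest of 13577 other genes, at a distance of 0.237. The next nearest were Gsn and Tmem203 for S100a8, and Tnfsf13b and Lrg1 for S100a9.

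Ly6g (ENSMUSG00000022582), the surface protein by which antibodies recognize mouse neutrophils, lies on chromosome 15 from 75155240 to 75159126. It was measured at 5.39, 7.75, 7.80 and 6.11 CPM with vehicle and at 3.36, 2.83, 3.77 and 5.84 CPM with tRA. Here too tRA replicates 1 to 3 were below all vehicle mice, and tRA replicate 4 was above vehicle replicate 1. The log2 fold change of -0.77 (standard error 0.224) was the most negative among the members, with an FDR of 0.757 by edgeR and 0.149 by DESeq2. The means behind it were 6.76 ± 1.21 CPM with vehicle and 3.95 ± 1.31 with tRA (SD, n = 4). The genes most like Ly6g over the 8 mice were Begain (distance 0.167), Cebpe (0.265), which encodes a transcription factor required for secondary granules, and Cope (0.298). S100a9 and S100a8 ranked 14 and 18 in likeness to it.

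Retnlg (ENSMUSG00000022651), a secreted relative of resistin made by myeloid cells, lies on chromosome 16 from 48872621 to 48874496. Its level was 10.2, 15.7, 19.2 and 10.6 CPM in the vehicle mice and 12.3, 9.67, 5.59 and 14.5 CPM in the tRA mice. The groups overlapped widely, since tRA replicates 1 and 4 were above vehicle replicates 1 and 4. The mean was 13.9 ± 4.30 CPM with vehicle and 10.5 ± 3.82 with tRA (SD, n = 4), and the log2 fold change was -0.41 (standard error 0.282, FDR 0.798 by edgeR). Leaving out vehicle replicate 3 brought it to -0.22, and leaving out tRA replicate 3 to -0.20. Mgst1 (distance 0.236), Rhpn1 and Metrnl were most like it, and S100a8 and S100a9 ranked 32 and 40.

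Among the receptors, Csf3r (ENSMUSG00000028859) binds granulocyte colony-stimulating factor, the cytokine that drives the formation of neutrophils. The gene lies on chromosome 4 from 126024550 to 126044440. It was measured at 150, 347, 207 and 243 CPM in the vehicle mice and at 303, 264, 209.5 and 352 CPM in the tRA mice. Vehicle replicate 1 was the lowest of all mice, vehicle replicate 2 was nearly as high as the highest tRA mouse, and the groups overlapped. The mean was 237 ± 83.1 CPM with vehicle and 282 ± 60.4 with tRA (SD, n = 4), and edgeR gave a log2 fold change of 0.25 with a standard error of 0.228 (FDR 0.848). That value depended on single mice, being 0.086 without vehicle replicate 1, 0.50 without vehicle replicate 2 and 0.13 without tRA replicate 4. Of the stretches of 50 bases in Csf3r transcripts, 10.7% also occur in transcripts of other genes, and how reads from them were counted is not given in the sources used here.

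Cxcr2 (ENSMUSG00000026180), the receptor for Cxcl1 and Cxcl2 that guides neutrophils out of the marrow and into tissue, lies on chromosome 1 from 74153989 to 74161246. The vehicle mice had 23.9, 39.5, 25.8 and 30.0 CPM and the tRA mice 37.8, 37.6, 28.7 and 52.4 CPM. Vehicle replicates 1, 3 and 4 were below tRA replicates 1, 2 and 4, while vehicle replicate 2 was above 3 of the tRA mice, so the groups overlapped. The mean was 29.8 ± 6.93 CPM with vehicle and 39.1 ± 9.82 with tRA (SD, n = 4), and the log2 fold change was 0.39 (standard error 0.190, FDR 0.776 by edgeR), or 0.22 when tRA replicate 4 was left out. The share of its stretches of 50 bases found in other genes was 6.68%. Csf3r and Cxcr2 ranked 5 in likeness to each other, whereas S100a9 ranked 4350 in likeness to Csf3r and 6452 in likeness to Cxcr2. The genes nearest to Cxcr2 were Sgms2, Kcnj2 and Fgl2, and those nearest to Csf3r were Il13ra1, Cdc42ep2 and Tnfaip2.

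Trem1 (ENSMUSG00000042265), an immunoglobulin-like receptor that amplifies inflammatory signals through the adaptor Tyrobp, lies on chromosome 17 from 48232768 to 48246924. It had 15.1, 25.8, 17.0 and 19.6 CPM in the vehicle mice and 29.4, 21.7, 7.05 and 15.1 CPM in the tRA mice. The tRA group held both the highest and the lowest mouse, so that the vehicle range lay inside the tRA range. The log2 fold change was -0.083 (standard error 0.342, FDR 0.974 by edgeR), and its sign turned when either of 2 mice was left out (0.087 without vehicle replicate 2 and 0.19 without tRA replicate 3). Gm37198 (distance 0.182), Trib1 and Ccrl2 were most like Trem1, and the nearest member was Retnlg, at rank 831.

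Mmp25 (ENSMUSG00000023903), a matrix metalloproteinase anchored in the neutrophil membrane, lies on chromosome 17 from 23628311 to 23645277. It ranged from 3.95 to 8.03 CPM in the vehicle mice and from 4.67 to 10.1 CPM in the tRA mice, so that the groups overlapped. Its mean was 5.84 ± 1.69 CPM with vehicle and 7.48 ± 2.34 with tRA (SD, n = 4), and edgeR gave a log2 fold change of 0.36 with a standard error of 0.256 (FDR 0.804). Single mice moved this to 0.21 (vehicle replicate 1 left out), 0.55 (vehicle replicate 2) or 0.19 (tRA replicate 4). Without tRA replicate 1 the value was 0.53 (FDR 0.378 by edgeR) and Mmp25 was at an unadjusted p under 0.05, as were 2105 of the 16683 genes then tested. Dph1, Cd244a (distance 0.270) and Dna2 were nearest to it in pattern, and Cxcr2 was the nearest member, at rank 1556.

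The relation of the alarmins to the receptors was then examined within each mouse, as a ratio of raw counts that does not depend on library size. It compares mice, not the levels of both genes. For each Csf3r count there were 1.55, 0.916, 1.47 and 1.13 S100a9 counts in the vehicle mice and 0.619, 0.658, 0.681 and 0.713 in the tRA mice. All 4 tRA mice were below all 4 vehicle mice, and the tRA mice lay close together. The mean log2 ratio was 0.31 ± 0.354 with vehicle and -0.58 ± 0.0867 with tRA (SD), a difference of -0.90 (exact permutation test, two-sided, p = 0.0286, adjusted p = 0.0429 over 3 ratios and 0.0571 over 4).

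For each Cxcr2 count there were 9.73, 8.07, 11.8 and 9.18 S100a9 counts in the vehicle mice and 4.96, 4.62, 4.97 and 4.79 in the tRA mice. Again the groups did not overlap, and tRA replicate 4, which had the vehicle-like level of S100a9, had the highest Cxcr2 of all mice and a ratio like those of the other tRA mice. The mean log2 ratio was 3.26 ± 0.230 with vehicle and 2.27 ± 0.0496 with tRA (SD), a difference of -0.99 (exact permutation test, two-sided, p = 0.0286, adjusted p = 0.0429 over 3 ratios and 0.0571 over 4). A p of 0.0286 is the smallest that 4 mice against 4 allow. As S100a9 was selected by the study on these mice and the ratios were chosen with earlier results known, these p-values are not independent evidence. Nor are the ratios to Csf3r and Cxcr2 independent of each other, since S100a9 is in both and the receptors ranked 5 in mutual likeness. How often ratios of other genes separate the groups was not tested. When single mice were left out, the difference stayed between -1.04 and -0.79 for Csf3r and between -1.08 and -0.89 for Cxcr2.

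The ratio to the remaining receptor, Trem1, is the fourth ratio and was added after seeing the data. For each Trem1 count there were 15.4, 12.3, 18.0 and 14.1 S100a9 counts in the vehicle mice and 6.39, 8.02, 20.3 and 16.6 in the tRA mice. Here the groups overlapped widely, with tRA replicates 1 and 2 below all vehicle mice and tRA replicate 3 above them. The mean log2 ratio was 3.89 ± 0.229 with vehicle and 3.52 ± 0.805 with tRA (SD), a difference of -0.37 (exact permutation test, two-sided, p = 0.429, adjusted p = 0.429 over 4 ratios). Leaving out tRA replicate 1 gave -0.088, and leaving out tRA replicate 3 gave -0.64. Once this ratio is counted in the adjustment, the ratios to Csf3r and Cxcr2 are no longer under an adjusted p of 0.05.

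**Figure D2:**
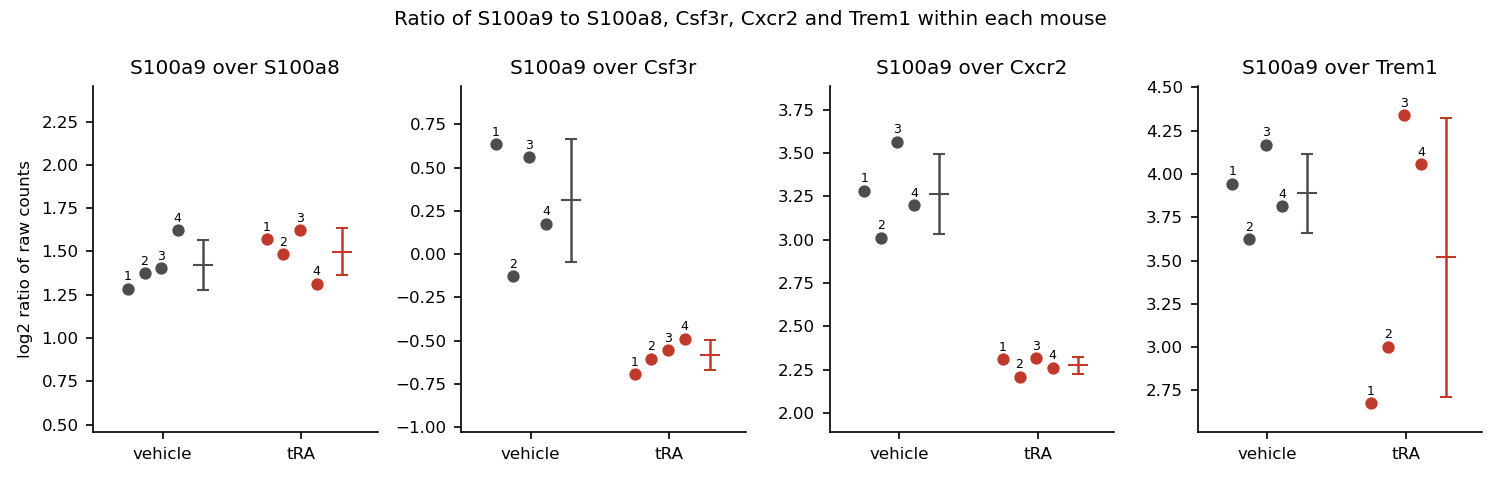
Log2 ratio of raw S100a9 counts to raw S100a8, Csf3r, Cxcr2 or Trem1 counts in each of 4 vehicle mice (gray) and 4 tRA mice (red), with the mean ± SD beside the points. Each vertical axis spans the same length on the log2 scale. The ratios to S100a8 and Trem1 overlap between groups, and the ratios to Csf3r and Cxcr2 are lower in all 4 tRA mice than in all 4 vehicle mice.

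Other genes of mature neutrophils were taken as a list of 20, of which 19 were tested. By edgeR 0 passed an FDR of 0.1, 4 were lower and 0 higher at an unadjusted p under 0.05, and the median log2 fold change was -0.0068 (from -0.15 to 0.072 with single mice left out). In this and the following lists, genes are ordered by CPM, which is their share of reads and, not being per length, no order of transcript levels. The gene with the most reads was Il1b, which encodes interleukin-1β, at 127 ± 26.0 CPM with vehicle and 138 ± 66.1 with tRA (SD, n = 4). The gelatinase Mmp9 was at 43.6 ± 12.5 CPM with vehicle and 40.0 ± 9.95 with tRA, and the haptoglobin gene Hp at 37.6 ± 8.61 and 34.9 ± 7.83. Thus the 9 positive and 10 negative values of this list stood on both sides of 0, as those of the members did.

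Of 10 genes listed for the secondary granules, among them the gene of the transcription factor Cebpe, 0 passed an FDR of 0.1 in edgeR. All 10 had a negative log2 fold change, with a median of -0.81, and 8 of them were lower at an unadjusted p under 0.05. For 4 genes all tRA mice were below all vehicle mice, and for 6 the groups overlapped. Ngp, the gene with the most reads, was at 325 ± 44.0 CPM with vehicle and 171 ± 50.9 with tRA (SD, n = 4), with a log2 fold change of -0.92. Lactoferrin (Ltf) was at 159 ± 25.3 CPM with vehicle and 86.6 ± 27.2 with tRA. The cathelicidin gene Camp had 71.1 ± 5.25 CPM with vehicle and 30.2 ± 8.35 with tRA. DESeq2 placed 5 of the 10 at an FDR under 0.1, namely Camp, Ngp, Ltf and, named after their values were seen, Lcn2 and Olfm4. All 5 were among the genes that the study selected on these mice, so that their direction is not independent evidence. The summed level of the list was 555, 699, 743 and 631 CPM in the vehicle mice and 256, 319, 342 and 497 CPM in the tRA mice, and tRA replicate 4 was again the highest tRA mouse.

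Of 6 primary granule genes, 5 were tested, and all 5 were lower at an unadjusted p under 0.05, with a median log2 fold change of -0.97 and 0 at an FDR under 0.1 in edgeR. The groups did not overlap for 3 of them. Myeloperoxidase (Mpo), first in reads, was at 14.7 ± 2.86 CPM with vehicle and 8.44 ± 3.65 with tRA (SD, n = 4). Neutrophil elastase (Elane) was at 3.35 ± 0.529 CPM with vehicle and 1.63 ± 0.875 with tRA, and proteinase 3 (Prtn3) at 3.03 ± 0.214 and 1.52 ± 0.629. S100a8, S100a9, Ly6g, Retnlg and Trem1 had the negative sign of both granule lists, and Csf3r, Cxcr2 and Mmp25 the opposite one. Of these, only S100a8, S100a9 and Ly6g were at an unadjusted p under 0.05 by edgeR. The sign of Trem1 (-0.083) turned without vehicle replicate 2 or without tRA replicate 3. Whether the members and the granule lists differed in their change was not tested.

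Of 16 ligands and signalling partners of the members, 12 were tested, with log2 fold changes from -0.26 to 0.17. Of these, 0 had an FDR under 0.1 by edgeR and 1 was lower at an unadjusted p under 0.05 (Pglyrp1, named after its value was seen), and the median was -0.012 (from -0.070 to 0.023 with single mice left out). Pglyrp1 is also in the list of other mature neutrophil genes and was counted among the lower genes there. The receptor kinase Grk2 was at 868 ± 51.9 CPM with vehicle and 852 ± 45.3 with tRA (SD, n = 4), Jak1 at 697 ± 65.9 and 729 ± 43.8, and the arrestin Arrb2 at 222 ± 18.8 and 222 ± 6.73. Csf3, which encodes the ligand of Csf3r, had 66 counts over all 8 mice and was not tested.

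In the S100 family, 9 of 16 genes were tested, 8 of them with a negative log2 fold change and a median of -0.23, which was -0.12 without vehicle replicate 3 and -0.34 without tRA replicate 1. Besides S100a8 and S100a9, S100a13 was the third gene lower at an unadjusted p under 0.05, and it was named after its value was seen. S100a10, second in reads, was at 111 ± 15.4 CPM with vehicle and 108 ± 5.99 with tRA (SD, n = 4). Relatives of the other members comprised 20 genes, 14 of them tested, with a median of -0.15 (-0.29 without tRA replicate 4), 2 lower at an unadjusted p under 0.05, 0 higher and 0 at an FDR under 0.1 by edgeR. The most reads were on Ly6e (388 ± 13.9 CPM with vehicle and 352 ± 21.7 with tRA), Treml2 (183 ± 13.9 and 196 ± 7.99) and Ly6d (57.3 ± 9.91 and 45.3 ± 3.64). Cxcr1, a close relative of Cxcr2, had 60 counts over all 8 mice and was not tested.

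Monocytes share several of these genes, Csf3r and S100a8 among them. Of 9 monocyte markers 9 were tested, 4 lower and 5 higher, with 0 at an unadjusted p under 0.05 and a median log2 fold change of 0.021 (from -0.088 to 0.17 with single mice left out). Their summed level was 380.5, 721, 618 and 517 CPM in the vehicle mice and 434, 570, 725 and 680 CPM in the tRA mice. Csf1r had the most reads, at 177 ± 34.9 CPM with vehicle and 180 ± 37.8 with tRA (SD, n = 4), and 0 of the 9 were at 0 counts. Vehicle replicate 1 was lowest and vehicle replicate 2 highest among the vehicle mice both for this sum and for Csf3r. Among the tRA mice the orders differed, since replicate 3 had the highest sum and the lowest Csf3r, and replicate 1 the lowest sum and the second highest Csf3r. The part of monocytes in the values of Csf3r was not tested.

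Immediate early and heat shock genes are switched on quickly when cells are stimulated or stressed. Of 11 such genes, 0 had an FDR under 0.1 by edgeR and 2 by DESeq2 (Jun and, named after its value was seen, Egr1). All 11 had a negative log2 fold change, 6 were lower at an unadjusted p under 0.05 and 5 did not reach it, and for 5 the groups did not overlap. The median was -0.58, and -0.92 without tRA replicate 1. Jun and Egr1 were selected by the study on these mice. The summed level was 17158, 16122, 17424 and 14232 CPM in the vehicle mice and 14505, 12489, 5859 and 8494 CPM in the tRA mice, and 0 of the 11 genes were at 0 counts. Over both groups Fos had the most reads, at 3184 ± 216 CPM with vehicle and 2216 ± 1150 with tRA (SD, n = 4). Next in reads were Fosb, which had more than Fos with vehicle, at 3319 ± 522 and 2027 ± 725 CPM, and Jun, at 2511 ± 268 and 1683 ± 378. tRA replicate 3, lowest in this sum, was also lowest of all 8 mice for S100a8, S100a9, Retnlg and Trem1, and lowest of the tRA mice alone for Csf3r and Cxcr2, but not lowest for Ly6g or Mmp25. tRA replicate 4, second lowest in this sum, was the highest tRA mouse for every member but Trem1. The part of cell stress in the values of the members was not tested.

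**Figure D3:**
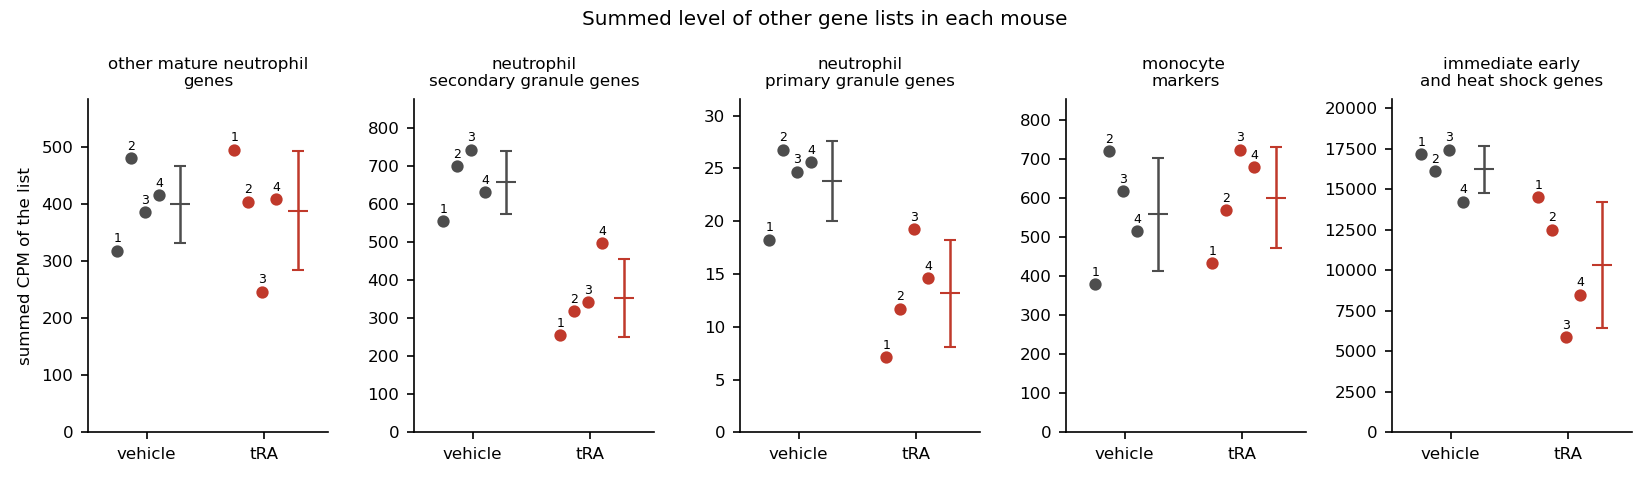
Summed CPM of 5 gene lists in each of 4 vehicle mice (gray) and 4 tRA mice (red), with the mean ± SD beside the points. The secondary granule genes are lower in all 4 tRA mice than in all 4 vehicle mice, the other mature neutrophil genes and the monocyte markers overlap, and tRA replicate 3 is lowest for the immediate early and heat shock genes.

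Markers of the remaining cell types of the spleen were counted to see what else the libraries held. Of these lists, which differ in size, the B cell markers took the most reads, at a summed 6589 ± 483 CPM with vehicle and 6607 ± 72.8 with tRA (SD, n = 4), led by Cd79a, with a median log2 fold change of -0.0092 over 8 genes. T cell markers summed to 1523 ± 161 and 1594 ± 23.4 CPM, led by Lck, with a median of 0.12 over 8 genes and 1 higher at an unadjusted p under 0.05 (Cd28, named after its value was seen). The median was -0.065 for 5 NK cell markers, led by Gzma, -0.15 for 7 dendritic cell markers, led by Itgax, and -0.066 for 8 red pulp macrophage markers, led by Hmox1. Of 9 markers of eosinophils, basophils and mast cells, 7 were tested, led by Il5ra, with a median of 0.035. Of 5 platelet markers, 4 were tested, led by Itga2b, with a median of -0.23, and of -0.097 where at least 10 counts in every sample were required. With single mice left out, the median ranged from -0.40 to -0.061 for platelets, from 0.037 to 0.19 for T cells and from -0.28 to -0.065 for dendritic cells, and it turned sign for B cells, NK cells, red pulp macrophages and the list of eosinophils, basophils and mast cells. The 8 erythroid markers had a median of 0.35, which turned to -0.26 without tRA replicate 3 and was 0.70 without vehicle replicate 3. Their sum had the widest spread among these lists, at 1320 ± 847 CPM with vehicle and 1770 ± 1431 with tRA, led by Hbb-bs. In these lists 0 genes had an FDR under 0.1 by edgeR or DESeq2.

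The promoters of S100a8 and S100a9 are shown because both genes had nearly the same pattern over the mice, and that of Cxcr2 because its difference had the opposite sign. They are RefSeq sequences of GRCm38.p6, from 250 bases before to 50 bases after the start of the gene in RefSeq, and all 8 members had such a window, Ly6g a pair of them. The RefSeq start differs from the GENCODE start given above by 93 bases for S100a8 and 5 for Cxcr2, and is the same for S100a9. Capitals mark every match, on either strand, to 1 of 4 motifs. These are AGGTCA, the core of retinoid receptor sites, and TTNNGNAA, a motif of C/EBP factors. The others are GAGGAAG, a motif of PU.1, and the core promoter motif TATAAA.
S100a8 (chr3:90668821-90669120, plus strand): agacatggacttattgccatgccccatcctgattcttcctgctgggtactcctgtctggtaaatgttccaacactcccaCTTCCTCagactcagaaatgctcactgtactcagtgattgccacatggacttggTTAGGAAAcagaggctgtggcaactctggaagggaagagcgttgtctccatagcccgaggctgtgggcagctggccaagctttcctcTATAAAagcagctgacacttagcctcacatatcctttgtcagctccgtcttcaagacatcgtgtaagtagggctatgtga
S100a9 (chr3:90695672-90695971, minus strand): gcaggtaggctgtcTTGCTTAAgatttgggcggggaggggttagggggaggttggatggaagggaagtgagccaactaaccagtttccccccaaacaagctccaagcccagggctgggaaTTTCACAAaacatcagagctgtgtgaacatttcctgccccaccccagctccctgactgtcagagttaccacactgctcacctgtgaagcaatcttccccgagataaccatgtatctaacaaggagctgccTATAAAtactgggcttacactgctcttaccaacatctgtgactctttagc
Cxcr2 (chr1:74153744-74154043, plus strand): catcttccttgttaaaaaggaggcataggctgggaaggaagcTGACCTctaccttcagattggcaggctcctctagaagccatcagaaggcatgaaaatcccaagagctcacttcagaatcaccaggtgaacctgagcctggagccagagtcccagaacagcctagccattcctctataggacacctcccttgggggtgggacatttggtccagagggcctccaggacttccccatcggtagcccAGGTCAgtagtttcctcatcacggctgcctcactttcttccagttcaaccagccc
AGGTCA stood in the windows of 3 of 8 members (Cxcr2, Ly6g and Retnlg), against 16.3% of the 32817 windows of the table. Ly6g and Retnlg had a negative log2 fold change, as S100a8 and S100a9 did. Csf3r and Mmp25, positive like Cxcr2, did not hold AGGTCA, so the motif did not follow the sign. TTNNGNAA stood in 5 of 8 (40.7% of all windows), GAGGAAG in 4 of 8 (13.6%) and TATAAA in 3 of 8 (13.6%), the last in S100a8, S100a9 and Ly6g. The place of TATAAA relative to the RefSeq start differed, being -30 in S100a8, 0 in S100a9 and -99 or -167 in the windows of Ly6g. In Cxcr2 AGGTCA occurred once on each strand, and in S100a8 and S100a9 these letters were not in the window. A match describes the letters only and was not tested for binding.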

How the data were processed

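Total RNA of splenocytes was made into libraries with the TruSeq v2 protocol and sequenced as paired ends on 1 lane. The authors deposited raw counts per gene for each of the 8 mice, without normalization. In the study's methods, reads were trimmed with ea-utils and Btrim, aligned with Bowtie2 and Tophat2 and counted with HTSeq, whereas the submitters' processing notes list STAR 2.5.2b, featureCounts 1.5.1, DESeq2 1.26.0 and GRCm38. Which of these tools made the counts, and whether counting used the strand, is not given in the sources used here. A second deposited file holds the result of a DESeq2 test between the groups (fold changes and p-values) and was not used.

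Of the 51826 gene identifiers, 51633 had an entry in GENCODE M21 and 193 had not. The main test was that of edgeR 4.0.16 in R 4.3.3 (filterByExpr with a minimum of 10 counts, TMM, quasi-likelihood test, Benjamini-Hochberg adjustment over 16484 genes), and the fit was tested on simulated data. Alternatives used limma 3.58.1 and DESeq2 1.42.0, other normalizations and filters, the replicate number as a block, and each mouse left out in turn. Summaries and figures were made in Python 3.11.15 with pandas 2.3.3 and matplotlib 3.10.9. Counts of mice in the same group were compared by a chi-square over genes, and no library was a copy of another of its group (14.1 to 72.6 per degree of freedom). Libraries of different groups were not compared in this way.

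The members and the 16 other gene lists were chosen with earlier results of these data known. The genes named are the members, the 3 genes of a list with the highest mean CPM and any of its genes at an FDR under 0.1, and the 3 genes most like each member. Csf3 and Cxcr1 are named besides, as the ligand of Csf3r and the relative of Cxcr2, and other genes only where marked as named after their values were seen. Lists are described by counts and medians, without a set test. Several lists share genes, Pglyrp1 and Mmp9 among them, and such a gene is counted in each list that holds it.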

Additional observations from a re-analysis of the deposited data

How the results depend on the processing

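The direction of 7 of the 8 members was the same under all 16 alternatives. Trem1 turned from -0.083 to 0.087 without vehicle replicate 2 and to 0.19 without tRA replicate 3, within a range down to -0.41 without tRA replicate 1, and the cause was not tested. The number of members at an FDR under 0.1 was 0 under every alternative. The number at an unadjusted p under 0.05 was 3 and ranged from 3 to 5 with each mouse left out. The 5 were reached without vehicle replicate 2, which added Csf3r and Cxcr2, against 1135 of 16735 genes. There were 4 without tRA replicate 1, which added Mmp25 on the higher side, against 2105 of 16683 genes. There were also 4 without tRA replicate 3 (against 866 of 16636 genes) and with no filter on low counts (against 1592 of 29817). Each of these settings added Cxcr2. Over all genes, the number at an FDR under 0.1 was 0 with edgeR (1070 at an unadjusted p under 0.05, from 657 without tRA replicate 4 to 2105 without tRA replicate 1), 44 with DESeq2, 1 with limma-voom, 6 with no filter on low counts and from 0 to 3 when single mice were left out. The highest of these was without tRA replicate 4. DESeq2 with no filter, a setting chosen after seeing the data, gave 27. Same-numbered mice had correlated deviations of 0.157, -0.0229, -0.014 and 0.259, and were not taken as pairs. The replicate block gave 0 genes at an FDR under 0.1 and 1200 at an unadjusted p under 0.05. It placed 4 members at that p, with Cxcr2 added on the higher side. The 4 ratios kept their direction with each mouse left out and with 1 count added to both genes. The S100a9 to S100a8 difference ranged from 0.032 to 0.14. With the S100a9 to Trem1 ratio, chosen after seeing the data, in an adjustment over 4 ratios, the differences of -0.90 for Csf3r and -0.99 for Cxcr2 went from an adjusted p of 0.0429 to 0.0571. Of 17 lists, with the members counted as 1 of them, 8 had a median that turned sign when a single mouse was left out. These were the erythroid markers (0.35) and 7 lists with medians no further than 0.066 from 0. The median of the members kept its sign and ranged from -0.45 to -0.0062.

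With 4 mice a group, the standard errors of the members lay between 0.157 and 0.342 on the log2 scale. Cells were not sorted, and all values are of RNA. An outlying mouse was looked for in 24 sets of 4 values, with 0 found and 1.2 expected by chance. That count depends on the cut for lying far from the others, and no result rests on it.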
